A study of Rattus norvegicus with 6 samples.

Results

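The miR-30 family was represented by 5 guide-strand assays, miR-30a, miR-30b, miR-30c, miR-30d and miR-30e, out of 584 miRNA assays. They were chosen by name, with the passenger-strand assays (marked *) left out, and no measured value entered the choice. MicroRNAs were quantified by RT-qPCR in left ventricular tissue of 3 LETO rats, the non-diabetic control strain, and 3 OLETF rats, an inbred strain that becomes obese and develops type 2 diabetes. OLETF rats are known to lack a functional cholecystokinin A receptor. All diabetic hearts were OLETF and all control hearts LETO, so that diabetes, obesity and strain cannot be told apart. No drug or other intervention is named for either group, and the age and sex of the rats are not given in the sources used here. The tissue is whole ventricle, a mixture of cardiomyocytes, fibroblasts, vessel and blood cells, in which fewer cells of a type and less RNA per cell cannot be told apart.

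MicroRNAs guide Argonaute proteins to messenger RNAs, mainly through the seed, bases 2 to 8 of the mature strand, and lower their translation or stability. The members of the miR-30 family share a seed and are therefore expected to recognise overlapping sets of messenger RNAs. The family is abundant in the heart, where connective tissue growth factor, the autophagy protein Beclin 1 and the mitochondrial fission pathway have been described as targets.

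The mature strands of 3 of the 5 members are printed from the RefSeq miRNA table (build GRCr8). They share the seed and differ only outside it, so the assays had to tell them apart by those other bases. miR-384-5p is shown beside them as an miRNA of another gene with the same seed. Capitals mark the seed.
miR-30a: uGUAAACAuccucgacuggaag
miR-30e: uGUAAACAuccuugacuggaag
miR-30c: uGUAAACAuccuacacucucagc
miR-384-5p: uGUAAACAauuccuaggcaaugu
The strand of miR-30a lies at chr9:33233946-33233967 (plus strand) and that of miR-30e at chr5:139637504-139637525 (minus strand). miR-30c is encoded by 2 genes, Mir30c1 with its strand at chr5:139634505-139634527 (minus strand) and Mir30c2 at chr9:33253695-33253717 (plus strand), and the assay cannot tell these sources apart. miR-384-5p lies at chrX:74490939-74490961 (minus strand). Counted from the 5′ end, miR-30a and miR-30e differ by 1 substitution, C13U, over 22 compared positions. miR-30a and miR-30c differ by 5, C13A, G14C, G18C, G19U and A20C. miR-30b and miR-30d are named without a sequence. In the RefSeq gene table Mir30a neighbours Mir30c2 on chromosome 9, Mir30b neighbours Mir30d on chromosome 7, and Mir30e and Mir30c1 both lie within the interval of Nfyc, a transcription factor subunit gene, on chromosome 5. Whether the assays of strands that differ by so few bases cross-detect each other was not tested.

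The measured quantity was the threshold cycle (Ct), the PCR cycle at which a well crosses the detection threshold. The more RNA is present, the lower the Ct, and a step of 1 cycle equals 1 log2 unit where amplification is perfect. Levels are given as minus the difference between the Ct of an assay and a reference on the same card, the block of wells in which both were run, in log2 units. The reference of the labelled method is U6, a small nuclear RNA. A second reference, the median Ct of the assays of the card that were measured in all 6 samples (Ct under 35), is used beside it. All 5 members were on the first block, card A, in 1 well each, and all were measured in 6 of 6 samples, with Ct values between 19.7 and 27.7. Their Ct thus carries no technical replicate of its own. On card B, pairs of wells of one assay with a Ct under 28 gave an SD of a single well of 0.256 cycles (57 pairs from 14 assays), or 0.363 for the difference of 2 wells. Any steady offset between the 2 wells of an assay is counted in these values.

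Of the 584 assays, between 197 and 292 were measured per sample, with the highest number in LETO replicate 3. That sample stood apart. Its median Ct over the 122 card A assays measured everywhere was 26.5, against 27.96 to 30.0 in the other samples, while its U6 Ct of 17.9 lay within the 17.5 to 19.2 of the others. Of 7 muscle marker assays 7 were measured in all samples, as were 2 of 2 endothelial, 2 of 2 smooth muscle, 3 of 3 fibroblast, 5 of 6 leukocyte and 1 of 2 erythroid markers. The liver marker miR-122 and the islet marker miR-375 were measured in none. Of 2 brain markers, miR-124 was measured in none and miR-9 in all 6 samples, with Ct values from 28.1 to 32.98. Replicate numbers are those of the sample titles. The authors' own sample numbers differ between the strains, and no label pairs samples of the same replicate number. Whether the replicates are rats of different litters or were processed on different days is not given by the labels. The p-values thus measure only the spread between these samples, which may be partly technical.

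miR-30c had the highest level of the family and miR-30d the lowest in 6 of 6 samples. Over all samples, the level relative to U6 was -4.23 ± 1.66 for miR-30c, -4.93 ± 1.51 for miR-30b, -5.00 ± 1.21 for miR-30e, -6.71 ± 1.36 for miR-30a and -8.40 ± 1.398 for miR-30d (SD, n = 6). These SDs exceed the steps between miR-30c, miR-30b and miR-30e, but the difference between members taken within each sample was far steadier. miR-30c exceeded miR-30b by 0.70 ± 0.30 (SD, n = 6), in every sample. miR-30b and miR-30e did not differ beyond their spread (0.07 ± 0.38), and miR-30b was the higher of these in 3 of 6 samples. miR-30e exceeded miR-30a by 1.71 ± 0.23, and miR-30a exceeded miR-30d by 1.69 ± 0.19, each in every sample. The order is one of measured levels, which also hold the efficiency of each assay.

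Among the card A assays measured in a sample, 144 to 202 in number, miR-30c ranked between 4 and 11 from the top. miR-30e ranked between 11 and 13, miR-30b between 7 and 13, miR-30a between 17 and 21, and miR-30d between 30 and 38. If all assays were equally efficient, miR-30c would make up 35.3% to 52.6% of the summed family signal per sample, miR-30b 21.4% to 28.8%, miR-30e 15.5% to 29.2%, miR-30a 5.91% to 8.69% and miR-30d 1.73% to 2.76%.

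**Figure D1:**
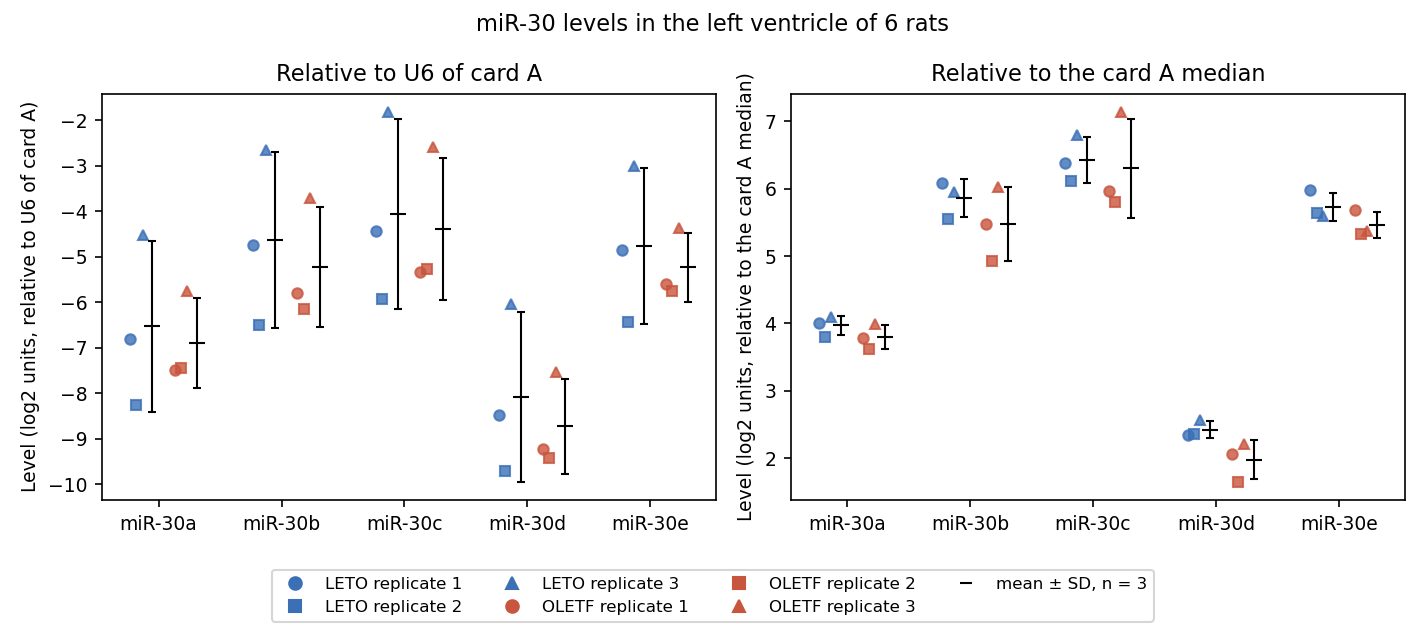
Levels of the 5 miR-30 members in log2 units, relative to U6 of card A on the left and to the card A median on the right. Each symbol is 1 rat (blue LETO, red OLETF, shape for the replicate number) and black bars are the mean ± SD of 3 rats. Relative to U6, LETO replicate 3 is the highest sample for every member, and the spread within each group exceeds the distance between groups. Relative to the card median the SDs are smaller, and miR-30d is the member whose groups do not overlap.

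No difference between OLETF and LETO hearts passed the test for any of the 5 members. Relative to U6, and in the order of replicates 1, 2 and 3, LETO hearts had miR-30c levels of -4.44, -5.94 and -1.82, and OLETF hearts of -5.33, -5.26 and -2.60. miR-30b lay at -4.74, -6.51 and -2.65 in LETO and at -5.80, -6.14 and -3.71 in OLETF. For both, replicate 3 was the highest of each group and the groups overlapped. miR-30e lay at -4.85, -6.42 and -3.01 in LETO and at -5.60, -5.74 and -4.36 in OLETF. miR-30a, whose strand differs from that of miR-30e at 1 base, followed it with -6.81, -8.25 and -4.52 in LETO and -7.50, -7.44 and -5.75 in OLETF. The lowest member, miR-30d, lay at -8.48, -9.70 and -6.04 in LETO and at -9.23, -9.42 and -7.52 in OLETF. Every member thus had both its highest and its lowest sample among the LETO hearts, with replicate 3 at the top and replicate 2 at the bottom.

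The change from LETO to OLETF relative to U6 was -0.33 for miR-30c, -0.37 for miR-30a, -0.47 for miR-30e, -0.59 for miR-30b and -0.65 for miR-30d. limma gave an SE of 1.38 and an adjusted p of 0.997 for each, a single SE that it pooled over all 193 assays tested. The 95% interval of miR-30c ran from -3.03 to 2.38 and that of miR-30d from -3.35 to 2.06, so changes of several fold either way lie within them. The two-sided exact permutation p was 0.7 for miR-30b, miR-30c, miR-30d and miR-30e and 0.8 for miR-30a (n = 3 each), where 3 against 3 samples cannot go below 0.1. At an adjusted p under 0.05, 0 of 5 members and 0 of the 193 assays tested (0%) passed in limma, with 0 members and 2 assays at an unadjusted p under 0.05. All 5 members had a lower mean in OLETF, but so had 80.8% of all assays. The median change was -0.47 over the members and -0.60 over all assays. In the authors' deposited table of OLETF over LETO ratios the members stood at 0.796 for miR-30c, 0.773 for miR-30a, 0.721 for miR-30e, 0.666 for miR-30b and 0.637 for miR-30d.

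All 5 members also had a lower mean in OLETF with the replicate number as a block (83.4% of all assays) and with array weights, which give samples that deviate from their group less weight (89.1% of all assays). With array weights 30 of 193 assays (15.5%) passed at an adjusted p under 0.05 and with the block 1 did (0.518%), and 0 of 5 members passed in either. For replicates 1, 2 and 3 the weights were 3.06, 0.32 and 0.24 in LETO and 3.19, 3.69 and 0.36 in OLETF. The weighted LETO level thus rested mostly on replicate 1. Relative to U6, the lower direction turned when LETO replicate 3 alone was left out. Without it, 0 of 5 members lay lower in OLETF (22.5% of all assays did). The changes ran from 0.37 for miR-30d to 0.79 for miR-30c (limma adjusted p = 0.998 for each). With replicate 3 of both groups left out, 4 of 5 members lay lower (64.4% of all assays). Relative to the card median without LETO replicate 3, 4 of 5 did (72.5% of all assays). Relative to U6, replicates of the same number, which no label pairs, gave differences of either sign. The mean of the 5 members lay 0.83 lower in OLETF replicate 1 than in LETO replicate 1, 0.56 higher for replicate 2 and 1.18 lower for replicate 3.

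Relative to the card median the samples lay much closer, and miR-30d was the member with the clearest separation. Its level was 2.34, 2.36 and 2.57 in LETO and 2.06, 1.65 and 2.21 in OLETF, lower in 9 of 9 pairs of samples. The groups did not overlap. The difference was -0.45 (SE 0.353, limma adjusted p = 0.638; 95% interval -1.25 to 0.36), and the exact permutation p of 0.1 is the smallest that 3 against 3 samples allow. Groups without overlap were found for 1 of 5 members and for 13.6% of the 162 assays measured in all samples. With the whole-array median as reference the groups of miR-30d overlapped again (-0.16, limma adjusted p = 0.924), as did those of the other 4 members, while 14.8% of assays did not overlap. The separation of miR-30d therefore depended on the reference.

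The other members overlapped relative to the card median too. miR-30a lay at 3.97 ± 0.15 in LETO (SD, n = 3), and OLETF differed from it by -0.17 (SE 0.343; SD within OLETF 0.18, n = 3). miR-30e lay at 5.73 ± 0.21 and 5.46 ± 0.19, a difference of -0.27 (SE 0.349). miR-30b lay at 5.86 ± 0.28 and 5.48 ± 0.55, a difference of -0.38 (SE 0.410). Of these 3, miR-30a had the smallest spread. miR-30c, at 6.43 ± 0.34 and 6.30 ± 0.73, showed the smallest change of the family, -0.13 (SE 0.459). The limma adjusted p of these 4 members was between 0.713 and 0.885, and at an adjusted p under 0.05 again 0 of 193 assays (0%) passed. All 5 members had a lower mean in OLETF, against 67.4% of all assays. Between samples of the same number, the mean of the members was lower in OLETF each time on this scale, by -0.36, -0.43 and -0.051 for replicates 1, 2 and 3. miR-30a, miR-30d and miR-30e were lower in all 3, while miR-30b and miR-30c were higher in replicate 3, by 0.068 and 0.35. No label pairs these samples, and how many of all assays were lower in all 3 was not counted. These directions are therefore not read as a result about the family. With the whole-array median only miR-30b and miR-30d had a lower mean, 2 of 5 members against 62.2% of all assays.

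**Figure D2:**
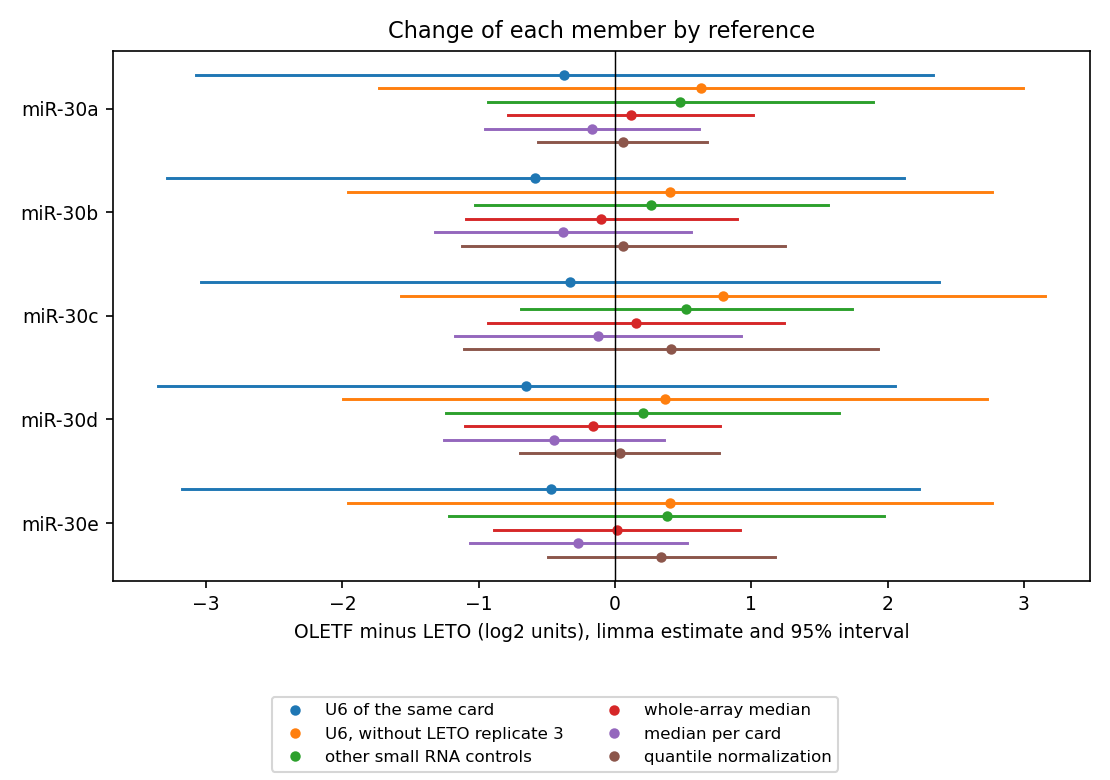
OLETF minus LETO for each member in log2 units, with the limma estimate (dot) and its 95% interval (line), under 5 references and for U6 without LETO replicate 3. All intervals span 0. With U6 the 5 estimates lie between -0.65 and -0.33, with the other small RNA controls between 0.20 and 0.52, and with the card median between -0.45 and -0.13.

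The members moved together across samples more closely than most assays did. The SD over 6 samples of the difference between 2 members had a median of 0.290 log2 units over the 10 pairs, from 0.188 for miR-30a and miR-30d to 0.585 for miR-30c and miR-30e. Over all 7381 pairs of the 122 card A assays the median was 0.765, and 3.73% of pairs had an SD below the members' median. Among the 35 assays at least as abundant as miR-30d, the median was 0.709, and 6.89% of 595 pairs lay below the members' median. The 0.363 found between 2 wells of one assay on card B is a different measure and cannot be set directly against this median. It pools squared differences over assays and samples and keeps any steady offset between the wells. The SD of a member pair removes such an offset. These are descriptions of 6 samples in which all assays of a card share the RNA input, and pairs that share a member are not independent.

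**Figure D3:**
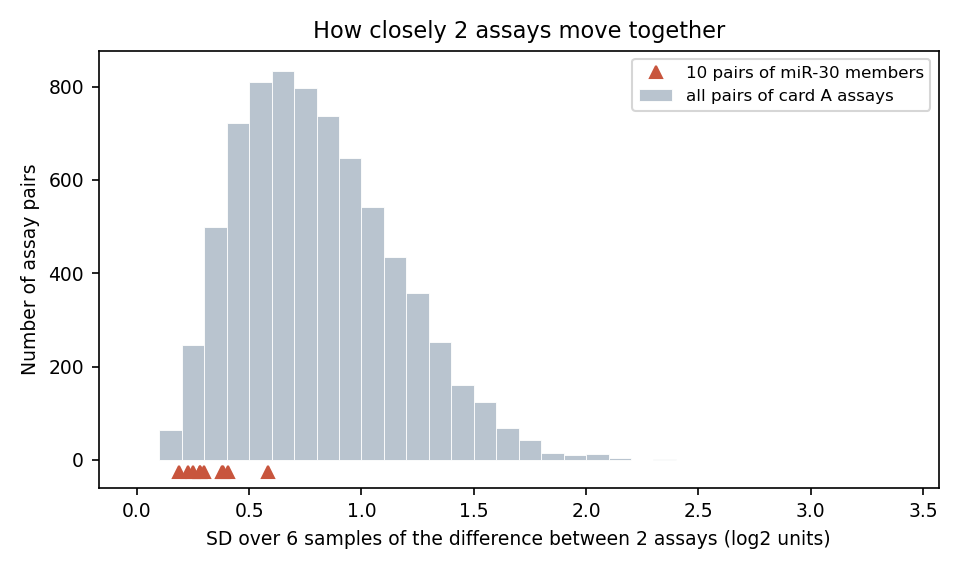
Distribution of the SD, over 6 samples, of the difference between 2 assays of card A (grey bars, number of pairs per 0.1 log2 units), with the 10 pairs of miR-30 members as red triangles below the axis. The triangles lie between 0.188 and 0.585, while the median of all pairs is 0.765.

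Relative to U6 the pairwise Pearson r between members had a median of 0.987, but over all card A pairs it was already 0.904. Relative to the card median, the median r was 0.712 for the member pairs and 0.110 for all pairs (n = 6 samples). On this scale miR-30a and miR-30b had the highest r, 0.955 (exact permutation p = 0.0125, adjusted over all card A pairs 0.275), and Spearman's rho = 0.829 (exact permutation p = 0.0583, adjusted 0.417). Without the 2 samples farthest from the median of miR-30a, r was 0.999. The same rho was found for miR-30a with miR-30c, miR-30a with miR-30d and miR-30b with miR-30c. By the SD of the difference, miR-30a and miR-30d were closer (0.188) than miR-30a and miR-30b (0.280). miR-30c and miR-30e were the least alike, with r = -0.099 (exact permutation p = 0.838, adjusted 0.951) and rho = 0.0286 (exact permutation p = 1, adjusted 1). Without the 2 samples farthest from the median of miR-30c, replicate 3 of both groups, their r turned to 0.930, over 4 samples. For miR-30a and for miR-30d the farthest samples were LETO replicate 3 and OLETF replicate 2. Without them, r of miR-30a went from 0.831 to 0.744 with miR-30c, from 0.864 to 0.366 with miR-30d and from 0.412 to 0.1199 with miR-30e. That of miR-30d and miR-30e went from 0.512 to 0.299. For miR-30b they were LETO replicate 1 and OLETF replicate 2. Without these, its r went from 0.832 to 0.474 with miR-30d and from 0.495 to -0.818 with miR-30e, but from 0.814 to 0.987 with miR-30c. Without replicate 3 of both groups, r of miR-30c and miR-30d rose from 0.610 to 0.868. None of the 10 pairs passed at an adjusted p under 0.05.

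The difference between miR-30c and miR-30e separated replicate 3 from the others in both strains. In LETO, miR-30c exceeded miR-30e by 0.40, 0.49 and 1.20 for replicates 1, 2 and 3, and in OLETF by 0.28, 0.48 and 1.76. The values of replicates 1 and 2 lay close together across strains, and those of replicate 3 lay above them in each. This was not particular to miR-30c and miR-30e. Both replicate 3 samples also lay outside the other 4 in the differences of miR-30a with miR-30c and with miR-30e. The same held for miR-30b with miR-30e, and for miR-30d with miR-30c and with miR-30e. How many of all card A pairs separate replicate 3 in this way was not counted. The difference between the strains was within their spread (0.14, exact permutation p = 0.9, n = 3 each). Replicate 3 also had the lowest card A median Ct of its group, 26.5 in LETO and 27.96 in OLETF against 28.9 to 30.0 in the other 4 samples. The part of this in the difference was not tested. Mir30e and Mir30c1 lie side by side within Nfyc, but miR-30c also comes from Mir30c2.

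**Figure D4:**
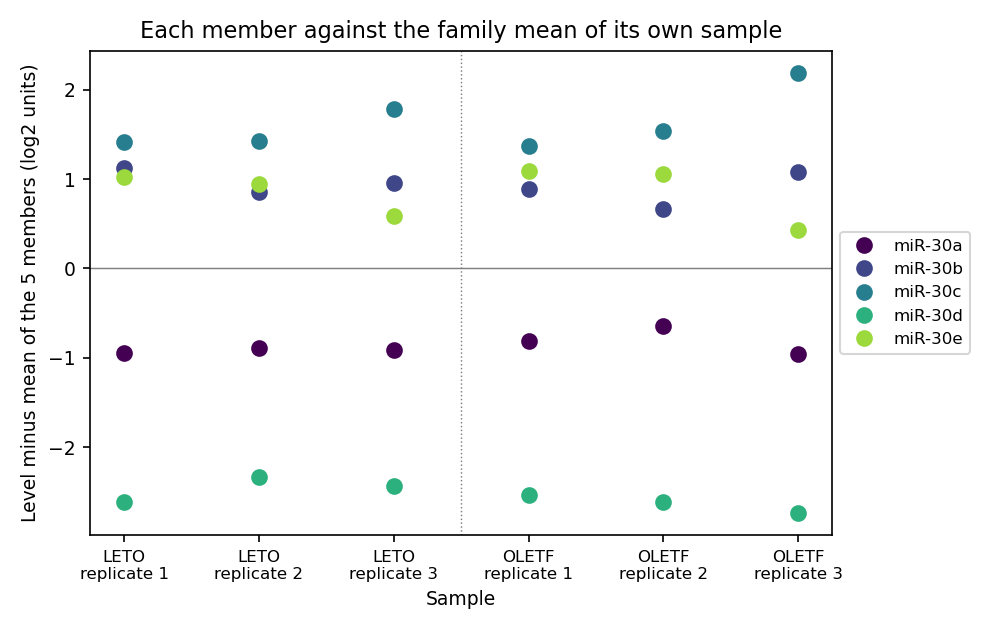
Level of each member minus the mean of the 5 members in the same sample, in log2 units, for the 3 LETO and 3 OLETF rats (left and right of the dotted line). The order is the same at both ends in every sample, with miR-30c highest and miR-30d lowest. In replicate 3 of both groups miR-30c stands at 1.79 and 2.19 and miR-30e at 0.59 and 0.43, in LETO and OLETF.

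Differences within a sample do not depend on the reference, since all members were on card A. Of the 10 pairs, only the difference between miR-30a and miR-30d did not overlap between the strains. It was 1.68, 1.45 and 1.52 in LETO and 1.73, 1.97 and 1.77 in OLETF, a change of 0.28 (exact permutation p = 0.1, the smallest possible, n = 3 each). Of all card A pairs, 13.8% did not overlap either. The family is commonly split into miR-30b and miR-30c on one side and miR-30a, miR-30d and miR-30e on the other. The mean of the first pair exceeded that of the other 3 by 2.10 ± 0.19 for LETO hearts and 2.14 ± 0.50 for OLETF hearts (SD, n = 3 each). The difference of 0.04 was within the spread of either strain.

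Of 7 related assays, 4 were measured in all samples, and none passed the test. miR-384-5p, which shares the seed but comes from a separate gene, had a level relative to U6 of -10.69 ± 1.04 for LETO and -10.97 ± 0.58 for OLETF (SD, n = 3 each), a difference of -0.29 (SE 1.38, limma adjusted p = 0.997). In the authors' deposited table its ratio was 0.821. Relative to the card median its r with the mean of the members was -0.48 (n = 6 samples), rank 135 of 157 other assays. The passenger strands of miR-30a, miR-30e and miR-30d, run on card B, differed by -0.65, -1.06 and -0.99 relative to U6 (SE 1.38, limma adjusted p = 0.997 each), and by 0.12, -0.30 and -0.22 relative to the card B median (adjusted p = 0.896, 0.775 and 0.870). miR-30c-1* was measured in 1 LETO sample, and miR-30b* and miR-30c-2* in none.

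The 5 assays that most resembled the mean of the members over the 6 samples, relative to the card median, were on card A. They were miR-133b, a muscle-enriched miRNA, with r = 0.979, miR-194 with 0.972, miR-204 with 0.961, miR-34a, a known p53 target, with 0.951 and miR-93 with 0.944. miR-133b lay at 5.15, 5.02 and 5.37 in LETO and at 4.79, 4.41 and 5.32 in OLETF. The mean of the members ran from 4.27 in OLETF replicate 2 up to its highest value in LETO replicate 3. In both, OLETF replicate 2 was the lowest sample and the strains overlapped. Without LETO replicate 3 these 5 values of r were between 0.933 and 0.9748. They are the highest of 157 and are given as a description.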

How the data were processed

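Frozen ventricle was the source of RNA, which per the labels' protocols was isolated with a mirVana kit, copied with a Megaplex primer pool and run on a 7900HT instrument. The series' design text names a TaqMan rodent array, while the label field reads SYBR Green, and the sample descriptions add cardiac cells. Baseline and threshold settings are not given in the sources used here. The authors deposited Ct values of 768 wells per sample, in a first and a second block of rows, named cards A and B here. The authors also deposited delta Ct values relative to U6, which are log2 quantities with the sign reversed, per the labels' protocols. A linear ratio of OLETF over LETO means was deposited by the authors, per the file headers, without its formula. Subtracting the mean of 4 U6 wells of card A from each member's Ct gave the deposited delta Ct to within 1e-06 for 30 values.

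Wells of one assay were averaged over those with a Ct, and assays with an average of at least 35 or without any Ct counted as not measured. Assays measured in at least 2 of 3 samples per group were tested, 193 in all, with limma 3.58.1 (lmFit, eBayes, two-sided) in R 4.3.3 and Benjamini-Hochberg adjustment over all of them. The fit was tested on simulated data with the spread of the median-referenced levels, not with the wider spread of the U6-referenced levels. For single values, exact permutation tests (two-sided) compared the groups; correlations were tested by exact permutation over all 720 pairings, adjusted over 7381 card A pairs. Levels measured in 3 samples a group limit the precision. The members follow from their names, but the family, like the lists and tests, was picked with earlier results of these data known. The assays named in the text are, by a written rule, the 5 members, 7 related assays, tissue markers and the 5 assays most like the family mean. Alternatives were other references, Ct limits, filters, blocks, array weights and samples left out.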

Additional observations from a re-analysis of the deposited data

How the results depend on the processing

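No member passed an adjusted p of 0.05 in any of 30 alternatives (limma; smallest adjusted p = 0.249, miR-30b with array weights). Of 150 member values, 126 kept the lower direction in OLETF and 24 turned. The Ct limits, filters, blocks, deposited delta Ct and ordinary per-assay model left each member's U6 estimate as it was. These settings could not turn it, so the count of 126 does not measure robustness. With the whole-array median, miR-30a (0.11), miR-30c (0.16) and miR-30e (0.013) turned. With the other small RNA controls, all did: miR-30a 0.48, miR-30b 0.27, miR-30c 0.52, miR-30d 0.20 and miR-30e 0.38. With quantile normalization, all did as well: miR-30a 0.056, miR-30b 0.062, miR-30c 0.41, miR-30d 0.034 and miR-30e 0.34. Within replicates 1 and 2, miR-30a did (0.059). The whole-array median and the control reference each shifted all 5 members by the same amount, since all were on card A. Those turns are therefore not separate results. Why the settings differ was not tested. With 1 sample left out, and U6 or the card median as reference, the change ran from -1.23 to 0.63 for miR-30a, -1.52 to 0.41 for miR-30b, -1.27 to 0.79 for miR-30c, -1.46 to 0.37 for miR-30d and -1.30 to 0.40 for miR-30e. All 5 turned without LETO replicate 3 under U6. miR-30c turned without LETO replicate 3 (0.054), OLETF replicate 1 (0.043) or OLETF replicate 2 (0.12) under the card median, and without OLETF replicate 1 (0.14) or 2 (0.10) under U6. Over all assays, the number past adjusted p 0.05 was 1 with the replicate block, 1 with replicate 3 as a block and 30 with array weights, none of them a member, against 0 otherwise. Of all assays, 80.8% had a lower mean in OLETF under U6, 51.2% under quantile normalization and 24.9% under the other small RNA controls.

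Same-numbered samples correlated in their deviations from the group means by -0.088, 0.23 and 0.62 (162 assays each), and the replicate numbers were therefore not used for pairing. The replicate block left the change of each member as it was (miR-30a -0.37, miR-30b -0.59, miR-30c -0.33, miR-30d -0.65 and miR-30e -0.47), with an SE of 0.808 and limma adjusted p from 0.815 to 0.874. With the card median and the replicate block, an alternative added after seeing the data, the adjusted p ran from 0.432 to 0.816. With 1 sample left out, the median SD between members ran from 0.229 to 0.320 and the step from miR-30c to miR-30d from 4.02 to 4.25. The contrast of miR-30b and miR-30c with the other 3 ran from -0.25 to 0.20. A single well per member and 3 rats per strain limit what could be detected.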

Other observations

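The passenger strands stood in different proportion to their guide strands. Guide and passenger assays were on different cards, each set against the U6 of its own card, so the levels also hold the efficiency of the assays and the reference of each card. Relative to U6, miR-30a* lay above miR-30a in 6 of 6 samples, by 0.86 ± 0.63 for LETO and 0.58 ± 0.14 for OLETF (SD, n = 3 each). Replicates 1, 2 and 3 differed by 1.30, 1.12 and 0.14 for LETO and by 0.50, 0.49 and 0.75 for OLETF, with LETO replicate 3 the lowest. Relative to U6, miR-30e* lay below miR-30e in 6 of 6 samples, by -1.27 ± 0.19 in LETO and -1.86 ± 0.62 in OLETF. On the raw Ct, with no reference, the difference was -0.34 ± 1.02 in LETO and -1.16 ± 0.47 in OLETF, and miR-30e* was the higher strand in 2 of 6 samples. miR-30d* lay below miR-30d in 6 of 6 samples, by -6.68 ± 1.45 in LETO and -7.02 ± 0.53 in OLETF. None of these differences was tested between the strains.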
